A study of Mus musculus with 6 samples.

Results

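The genes described are 8 markers of the oligodendrocyte lineage: the precursor surface proteins Pdgfra and Cspg4, the committed precursor genes Gpr17, Bmp4 and Enpp6, and the lineage transcription factors Olig1, Olig2 and Sox10. They were chosen by name, and each was found on 1 line of a count table of 41386 genes. All 8 passed the filter on low counts, which kept 18569 genes for testing. RNA-seq was performed on bulk ipsilateral hippocampus of 56-day-old male C57BL/6 mice, for which the labels give no genetic change. In the I/R group a filament blocked the left middle cerebral artery for 1.5 h and was withdrawn for 24 h of reperfusion, and the sham group had the same surgery without the filament. Each group had 3 libraries, numbered here as I/R 1 to 3 and sham 1 to 3. Per the study's methods each library pooled 3 hippocampi, so p-values measure the spread between pools and not between animals.

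Oligodendrocyte precursors are dividing glial cells of the adult brain that make new myelin-forming oligodendrocytes. They carry the PDGF receptor alpha and the NG2 proteoglycan, the products of Pdgfra and Cspg4. On commitment they switch these genes off and pass through a stage marked by Gpr17, Bmp4 and Enpp6 before the myelin genes come on, while Olig1, Olig2 and Sox10 are transcribed along the whole lineage.

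Sequence just before the transcription start was looked up for the members. Of the 8, 5 (Pdgfra, Cspg4, Bmp4, Enpp6 and Olig2) had an entry in RefSeq's promoter table on GRCm38.p6. Enpp6 and Cspg4 were called lower in I/R, whereas Olig2, Pdgfra and Bmp4 were not called. The windows printed are those of Enpp6, Cspg4 and Olig2, which held matches to the motifs given below. Each has 250 bases, 5′ to 3′ on the gene's own strand, and ends at the base before the start.
Enpp6, chr8:46986637-46986886, plus strand: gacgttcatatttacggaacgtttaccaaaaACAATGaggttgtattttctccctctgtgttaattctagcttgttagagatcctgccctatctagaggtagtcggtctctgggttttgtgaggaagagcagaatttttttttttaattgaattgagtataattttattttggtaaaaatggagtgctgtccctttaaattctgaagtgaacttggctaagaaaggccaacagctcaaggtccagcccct
Cspg4, chr9:56864854-56865103, plus strand: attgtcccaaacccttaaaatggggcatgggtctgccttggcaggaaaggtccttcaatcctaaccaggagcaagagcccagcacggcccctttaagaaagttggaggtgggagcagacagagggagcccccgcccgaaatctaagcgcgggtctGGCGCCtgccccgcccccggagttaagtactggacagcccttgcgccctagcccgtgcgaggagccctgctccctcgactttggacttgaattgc
Olig2, chr16:91225300-91225549, plus strand: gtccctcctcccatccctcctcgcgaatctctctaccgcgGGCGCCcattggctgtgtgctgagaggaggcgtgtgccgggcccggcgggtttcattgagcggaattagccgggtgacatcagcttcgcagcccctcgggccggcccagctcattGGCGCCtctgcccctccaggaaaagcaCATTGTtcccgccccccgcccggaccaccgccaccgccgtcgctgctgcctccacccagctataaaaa

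Capitals mark matches to 5 motifs of 6 bases, searched on both strands: CAGCTG and CATATG, forms of the E-box bound by basic helix-loop-helix factors such as the OLIG proteins, ACAAAG and ACAATG, forms bound by SOX proteins, and GGCGCC, a form bound by the SMADs of BMP signalling. Enpp6 held 1 ACAATG, 219 bases upstream of the start. Cspg4 held 1 GGCGCC, 95 bases upstream. Olig2 held 2 copies of GGCGCC, 210 and 95 bases upstream, and 1 ACAATG on the opposite strand, read as CATTGT, 68 bases upstream. No marked match overlapped another, and the windows of Pdgfra and Bmp4 held none of the 5. Among all 32851 promoter windows of this length, 10.7% held ACAATG, 9.59% GGCGCC, 16.5% ACAAAG, 13.0% CAGCTG and 3.46% CATATG. A match is a description of the letters only.

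After I/R, transcripts of 2 of the 3 committed precursor genes and of 1 of the 3 lineage factors were called lower than in sham. Gpr17 fell by 1.88 on the log2 scale, Enpp6 by 0.85 and the transcription factor Olig1 by 0.79. The calls of Gpr17 and Olig1 held in 17 of 17 other fits, and that of Enpp6 in 12 of 17. Cspg4 fell by 0.34, with a p close to the threshold. Pdgfra, Bmp4, Olig2 and Sox10 were not called. In edgeR's quasi-likelihood test, with p adjusted by Benjamini-Hochberg over all tested genes, 4 of 8 members were called and all 4 were lower in I/R. A call required a fold change over 1.2 in either direction besides an adjusted p under 0.05, and 41.8% of all tested genes met it, 21.8% higher and 19.9% lower. The members' share of calls was thus near the background, and their calls were all in 1 direction. The median log2 fold change was -0.33 over the members and 0.03 over all tested genes. In bulk tissue, fewer cells of a type and less of an RNA per cell cannot be told apart.

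Library totals ran from 37493042 to 44788547 counts. I/R 1 stood apart from the other I/R libraries: the coefficient of biological variation among I/R libraries was 0.236 with it and 0.135 without it, against 0.125 among sham libraries. Expression is given in CPM, a gene's counts set against a library size scaled with TMM, edgeR's trimmed mean of log ratios between libraries. With scaling by library size only, the median log2 fold change of all genes moved to 0.28, and 34.1% of tested genes were called higher and 10.9% lower. Under that scaling 3 of 8 members were called, Gpr17 and Olig1 lower and Sox10 higher, where 45.0% of tested genes were called. Markers of hippocampal neurons, 7 of 7 tested, fell in I/R, with a summed level of 1924 to 3825 CPM against 6783 to 7107 in sham and the lowest value in I/R 1, and 4 of them were called without sham 2. Prox1, a marker of dentate granule neurons and so of hippocampus, was present in both groups (138 ± 13.4 CPM in sham and 80.9 ± 11.3 after I/R, adjusted p = 0.00255). All 7 endothelial markers rose, from 196 to 199 CPM in sham to 332 to 555 in I/R, with the highest value in I/R 1. What part these marker changes had in the members' values was not tested.

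**Figure D1:**
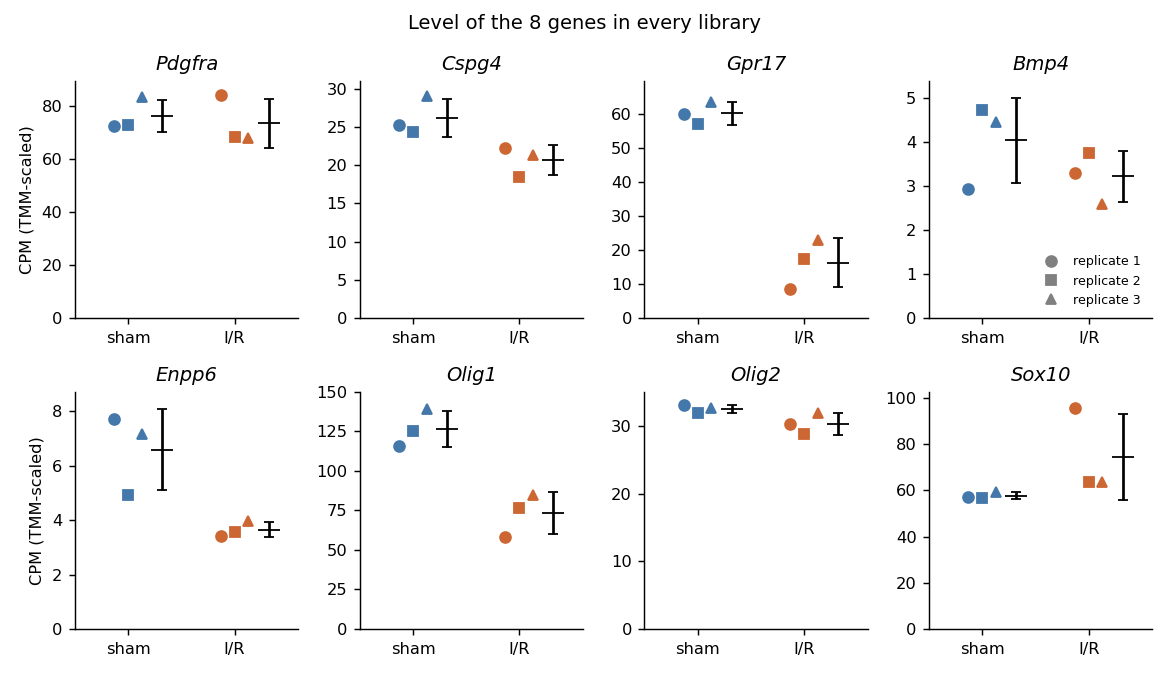
Level of each of the 8 lineage genes in every library, in TMM-scaled CPM on the vertical axis, with the 3 sham (blue) and 3 I/R (orange) libraries as points shaped by replicate number and, beside each group, its mean with bars of 1 SD. Gpr17 and Olig1 lie lower in all 3 I/R libraries, with 8.61 CPM of Gpr17 in I/R 1, whereas Olig2 is at 28.8 to 33.2 CPM in all 6 libraries.

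Pdgfra encodes the receptor through which PDGF-AA keeps precursors dividing. It lies on chromosome 5, 73119517 to 73167632, plus strand, of the BALB/cJ assembly to which the table's identifiers belong, as do the positions that follow. It was measured at 84.3, 68.3 and 68.2 CPM in I/R 1 to 3 and at 72.7, 73.1 and 83.5 CPM in sham 1 to 3. The groups overlapped, since 1 library of each was near 84 CPM and the others lay lower. The log2 fold change was -0.05 (SE 0.11, adjusted p = 0.725). Its sign turned to 0.21 with scaling by library size only and was then still below the median of all genes.

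Pdgfra is also a marker of perivascular and meningeal fibroblasts, and 4 of 7 other fibroblast markers rose, or 2 of 7 without sham 2. Collagen III (Col3a1) rose by 2.07 (SE 0.34, adjusted p = 0.00274) and decorin (Dcn) by 0.94 (SE 0.20, adjusted p = 0.00678). Their summed level ranged over 184 to 290 CPM after I/R and over 146 to 316 CPM in sham libraries. Most of the overlap lay in Igf2, which was at 76.1, 108 and 52.4 CPM after I/R and 65, 148 and 216 CPM after sham surgery. Igf2, the marker with the most negative change (-0.86, adjusted p = 0.134, not called), was then left out, a step added after the data were seen. The other 6 markers summed to 214, 134 and 132 CPM after I/R and to 81.2, 99.1 and 100 CPM after sham surgery. These sums did not overlap, but Igf2 was removed because of its values, so the lack of overlap carries no weight. The highest sum was in I/R 1. The share of Pdgfra RNA from such cells was not tested.

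Cspg4 encodes NG2, the chondroitin sulfate proteoglycan of the precursor surface, and lies on chromosome 9, 54014843 to 54049636, plus strand. It was at 22.2, 18.5 and 21.3 CPM after I/R and at 25.2, 24.3 and 29.0 CPM after sham surgery. All I/R libraries lay below all sham libraries, by a margin of about the spread within a group. This was a log2 fold change of -0.34 (SE 0.12, adjusted p = 0.0462). The call held in 4 of 17 other fits, whose adjusted p ranged from 0.00903 without I/R 1 to 0.71, and with scaling by library size only the value was -0.08 (adjusted p = 0.631).

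Pericytes carry NG2 too. Of 11 markers of pericytes and smooth muscle, 3 rose, 3 fell and 5 were not called, with sums of 245 to 313 CPM after I/R and 265 to 308 CPM after sham surgery. The list had 3 calls without sham 1 or without sham 3, and with scaling by library size only 4 rose and 1 fell. The potassium channel subunit Kcnj8 rose by 1.31 (SE 0.25, adjusted p = 0.00495) and smooth muscle myosin Myh11 fell by 0.84 (SE 0.17, adjusted p = 0.0061). The smooth muscle gene Tagln rose by 0.89 (SE 0.23, adjusted p = 0.0176) and the pericyte gene Vtn fell by 0.48 (SE 0.11, adjusted p = 0.012). Within a library, the ratio of Cspg4 to Pdgfra counts was 0.263, 0.271 and 0.312 in I/R against 0.347, 0.333 and 0.348 in sham. The I/R ratios were all lower, a log2 difference of -0.28 (exact two-sided permutation test, p = 0.1, the smallest that 3 against 3 libraries can give).

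Gpr17 encodes a G protein-coupled receptor that marks committed precursors and holds back their maturation. It lies on chromosome 18, 29163621 to 29170267, minus strand. Gpr17 was at 8.61, 17.4 and 23.0 CPM in I/R, from 392, 697 and 921 counts, and at 60.0, 57.0 and 63.6 CPM in sham, from 2342, 2317 and 2187 counts. The sham libraries were tightly grouped, the highest being 1.11 times the lowest, whereas the I/R libraries were spread 2.67 times and none came near sham. The mean in I/R was 27.2% of that in sham. Its log2 fold change was -1.88 (SE 0.30, adjusted p = 0.00257), and 78 of the 18569 tested genes, 0.42%, had a lower value.

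The fall of Gpr17 was called in 17 of 17 other fits, with log2 fold changes of -2.24 to -1.45. Without I/R 1, the library with the least Gpr17, it was -1.57 (SE 0.12, adjusted p = 2.13e-07). The gene lies inside Lims2, an adaptor gene of focal adhesions on the opposite strand, and whether the counting used strand is not stated. Lims2 had 20.9% as many counts as Gpr17 over the 6 libraries, 416, 223 and 235 in I/R against 344, 327 and 308 in sham, and its log2 fold change was -0.32 (SE 0.21, adjusted p = 0.255). Without I/R 1 Lims2 was called lower too, at -0.59 (SE 0.16, adjusted p = 0.00807).

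Enpp6 encodes a choline-specific phosphodiesterase switched on in newly forming oligodendrocytes. It lies on chromosome 8, 44515575 to 44618336, plus strand. It was at 3.43, 3.55 and 3.98 CPM in the I/R libraries and at 7.71, 4.92 and 7.15 CPM in the sham libraries. The I/R libraries were close together and below sham, and sham 2 was the sham library nearest to them. Enpp6 thus had a log2 fold change of -0.85 (SE 0.21, adjusted p = 0.0143). The call held in 12 of 17 other fits and was lost without sham 1 (-0.73, adjusted p = 0.058), without sham 3 (-0.80, adjusted p = 0.0564) and with scaling by library size only (-0.60, adjusted p = 0.0528).

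Bmp4 encodes a secreted BMP ligand that committed precursors make. It lies on chromosome 14, 38916652 to 38924054, minus strand. It was at 3.30, 3.75 and 2.60 CPM after I/R and at 2.92, 4.72 and 4.45 CPM after sham surgery, from 104 to 192 counts. The groups overlapped, and the lowest libraries were I/R 3 and sham 1. For Bmp4 the log2 fold change was -0.32 (SE 0.25, adjusted p = 0.335). With single libraries left out it ranged from -0.52 without sham 1 to -0.20 without sham 2, not called in either. Scaling by library size only gave -0.07 (adjusted p = 0.853). I/R 3 and sham 1 also had the least RNA of choroid plexus, whose 8 markers summed to 140 CPM in I/R 3, to 171 CPM in sham 1 and to 2273 to 6241 CPM in the other libraries. With the mean log2 CPM of those markers as a covariate, an alternative added after the data were seen, the Bmp4 value was -0.25 (SE 0.20, adjusted p = 0.349).

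Olig1 encodes a basic helix-loop-helix factor that promotes maturation and myelin repair. It lies on chromosome 16, 88473221 to 88475382, plus strand. Olig1 was at 58.5, 76.8 and 84.8 CPM in the I/R libraries and at 116, 125 and 139 CPM in the sham libraries. Every I/R library was well below every sham library, and I/R 1 was the lowest. Olig1 had a log2 fold change of -0.79 (SE 0.14, adjusted p = 0.00407). It was called in 17 of 17 other fits, at -0.93 to -0.53, and was -0.65 (SE 0.08, adjusted p = 2.26e-05) without I/R 1.

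Olig2, the related factor that specifies the lineage, lies on the same chromosome, 88436448 to 88439575, plus strand, and its end is 33646 bases before the start of Olig1. It was at 30.3, 28.8 and 32.0 CPM after I/R and at 33.2, 32.0 and 32.7 CPM after sham surgery. The I/R libraries lay below sham without overlap but by little, the highest of them being equal to the lowest sham library to 3 digits, and the log2 fold change of -0.10 (SE 0.09, adjusted p = 0.379) was not called. Its sign turned to 0.15 with scaling by library size only. The ratio of Olig1 to Olig2 counts was 1.93, 2.67 and 2.65 in I/R against 3.49, 3.91 and 4.24 in sham. Olig1 exceeded Olig2 in every library, and the mean log2 ratio was 1.26 in I/R against 1.95 in sham, a difference of -0.70 without overlap (exact two-sided permutation test, p = 0.1, the smallest possible).

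Sox10 encodes the SOX factor that activates the myelin genes. It lies on chromosome 15, 76642052 to 76651655, minus strand. It was at 95.8, 63.4 and 63.6 CPM in the I/R libraries and at 57.3, 56.6 and 59.3 CPM in the sham libraries. All I/R libraries were higher, but I/R 2 and I/R 3 lay only slightly above sham and I/R 1 stood far above them. Sox10 had a log2 fold change of 0.36 (SE 0.16, adjusted p = 0.105), which was 0.13 (SE 0.07, adjusted p = 0.143) without I/R 1. It was called with scaling by library size only (0.63, adjusted p = 0.0258).

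Sox10 is also a Schwann cell gene. Of the Schwann cell markers, gliomedin (Gldn) rose by 3.70 (SE 0.15, adjusted p = 4.45e-05) and periaxin (Prx) by 0.92 (SE 0.25, adjusted p = 0.0195), the list having 1 call without I/R 2 or any 1 of the sham libraries. Pmp2, a myelin protein gene of those cells, had 0 counts in every library. The share of Sox10 RNA from such cells was not tested.

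Counted over libraries, 5 members (Cspg4, Gpr17, Enpp6, Olig1 and Olig2) were lower in every I/R library than in any sham library, and 1 (Sox10) was higher. Among all tested genes 57.4% had no overlap between the groups, 28.1% with I/R lower and 29.3% with I/R higher. I/R 1 stood apart in both directions, with the lowest Gpr17 and Olig1 of the 6 libraries and the highest Sox10. It also had the lowest Enpp6, though close to I/R 2 (3.43 against 3.55 CPM). Its Pdgfra was the highest, though close to sham 3 (84.3 against 83.5 CPM).

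**Figure D2:**
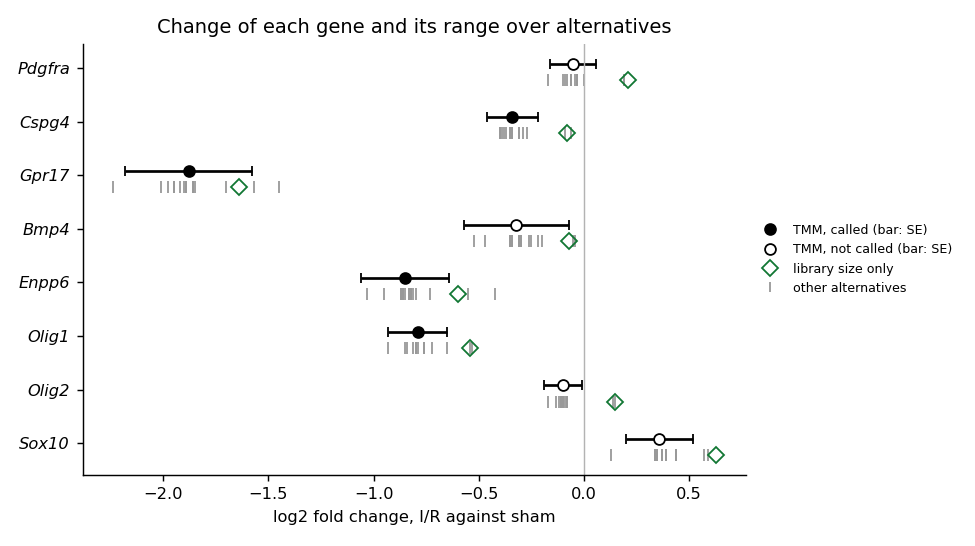
Fitted log2 fold change of I/R over sham for the 8 genes, with bars of 1 SE, from edgeR's fit across all tested genes (filled where called), and under each the value with scaling by library size only (diamond) and in the other alternatives (ticks). Gpr17 lies at -1.88, Enpp6 at -0.85 and Olig1 at -0.79, while Sox10 is at 0.36, and the diamonds of Pdgfra (0.21) and Olig2 (0.15) lie on the other side of 0 from their circles.

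Ratios of members within a library do not depend on how the library is scaled. Relative to Sox10, Gpr17 changed by -2.33 on the log2 scale, Enpp6 by -1.16, Olig1 by -1.13, Cspg4 by -0.68, Olig2 by -0.44 and Pdgfra by -0.39, each without overlap (exact two-sided permutation tests over 3 and 3 libraries, each p = 0.1). Bmp4 changed by -0.65 with overlap (p = 0.2 by the same exact test). With 7 such ratios tested, none can pass an adjustment at this number of libraries. Relative to Olig2, the member whose CPM varied least within either group, Gpr17 fell from ratios of 1.81, 1.78 and 1.94 in sham to 0.284, 0.605 and 0.72 in I/R. On that reference Pdgfra differed by 0.04 with overlap, against -0.39 on Sox10.

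Gpr17 also had lower ratios to the other stage genes. It was 7.78, 11.6 and 8.89 times Enpp6 in sham and 2.51, 4.91 and 5.79 times in I/R, a log2 difference of -1.16. To Pdgfra its ratio was 0.825, 0.78 and 0.761 in sham and 0.102, 0.255 and 0.338 in I/R, a difference of -1.93. Neither pair of groups overlapped.

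**Figure D3:**
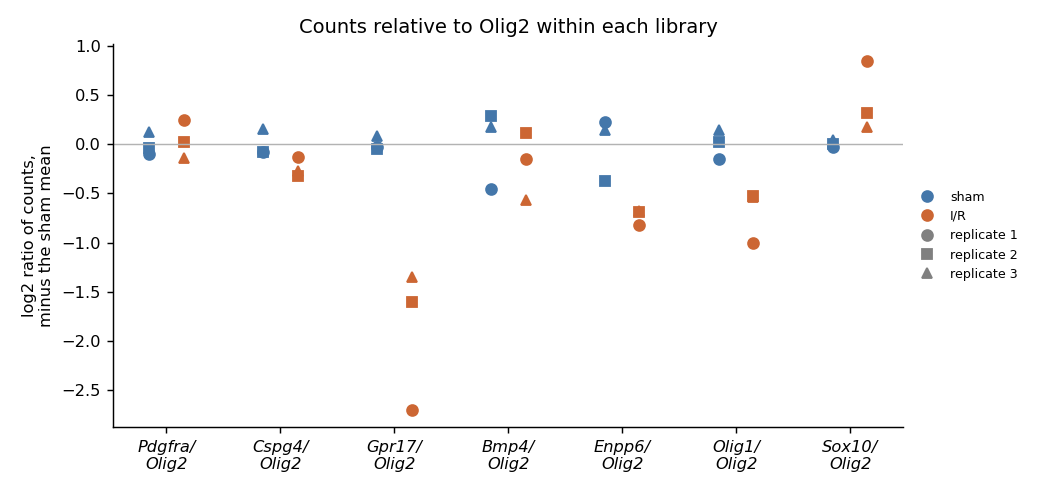
Log2 ratio of the counts of each other member to those of Olig2 in the same library, minus the mean of that log2 ratio over the sham libraries, for 3 sham (blue) and 3 I/R (orange) libraries shaped by replicate number. On average Gpr17 is 1.89 lower in I/R and Olig1 0.70 lower, whereas Sox10 is 0.44 higher and Pdgfra is 0.04 higher with overlapping groups.

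Levels of different genes were compared per length, as deposited FPKM. In sham, Olig1 had 53.5 ± 4.92 FPKM (SD, n = 3), Pdgfra 25.5 ± 2.12, Sox10 19.3 ± 0.567, Olig2 12.2 ± 0.311, Gpr17 10.6 ± 0.635, Enpp6 3.25 ± 0.748, Cspg4 2.98 ± 0.297 and Bmp4 2.64 ± 0.624. On these values Enpp6, Cspg4 and Bmp4 did not differ beyond their spread. In I/R, Gpr17 was at 3.40 ± 1.41 FPKM, below Olig2 at 13.6 ± 0.905, and Sox10 was at 29.8 ± 8.99 beside Pdgfra at 29.4 ± 5.14. For Pdgfra, Enpp6 and Bmp4 the length implied by FPKM (2746, 1858 and 1395 bases) was shorter than the length listed in the table (6837, 3421 and 2051 bases). By the listed length Pdgfra would be at 10.2 ± 0.85 in sham, below Olig2, and at 11.8 ± 2.06 in I/R, below Sox10. Enpp6 and Bmp4 would be at 1.77 ± 0.406 and 1.80 ± 0.424 in sham, both below Cspg4 by more than the spread. The places of Pdgfra, Enpp6 and Bmp4 in the order therefore depend on the length used.

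The gene closest in pattern to each member was found among 15480 genes by the root mean square difference of centred log2 CPM over the 6 libraries. Tbata was closest to Gpr17 (0.0614), Gjb6, a gap junction gene, to Olig1 (0.0529), Mkx to Enpp6 (0.0538) and Plekhg1 to Cspg4 (0.0197). Pdcd11 was closest to Sox10 (0.0445), Gcdh to Olig2 (0.0103), Thada to Pdgfra (0.0249) and Smpdl3a to Bmp4 (0.0729). Many other genes lay closer to each member than any other member did. The best rank of any member was 942 of 15480, that of Olig1 for Enpp6, at a distance of 0.236. The smallest distance between members was 0.13, of Pdgfra and Olig2, where Olig2 had rank 1048 for Pdgfra.

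Other genes of the precursor stage were called lower more often than higher. Of 18 tested, 1 rose, 9 fell and 8 were not called, with a median log2 fold change of -0.42. Among all tested genes 21.8% were called higher and 19.9% lower. With scaling by library size only 3 rose and 6 fell. Brevican (Bcan), a matrix proteoglycan, fell from 262 ± 5.95 to 133 ± 13.2 CPM (-0.98, SE 0.10, adjusted p = 0.000599), and Cacng4, an AMPA receptor auxiliary subunit, from 25.9 ± 0.836 to 14.8 ± 0.868 CPM (-0.80, adjusted p = 0.000984). Versican (Vcan) rose by 0.46 (adjusted p = 0.00956). Several of these genes, Bcan among them, are also transcribed in astrocytes or neurons. Of 7 astrocyte markers, 2 rose and 3 fell, with 3 calls without sham 3, and with scaling by library size only 3 rose and 2 fell.

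Of 14 other genes of committed precursors and newly formed oligodendrocytes, 3 rose, 4 fell and 7 were not called, with a median of -0.14, which was 0.12 with scaling by library size only. The count of calls was 4 without any 1 of the sham libraries, and with scaling by library size only 3 rose and 1 fell. The sialidase gene Neu4 was at 4.02, 6.18 and 7.0 CPM in I/R against 14.3, 13.1 and 15.5 CPM in sham, and fell by 1.32 (SE 0.21, adjusted p = 0.00251). Like Gpr17, it was lowest in I/R 1. Bcas1, a marker of early myelinating cells, rose by 1.01 (SE 0.18, adjusted p = 0.00372) and the small GTPase gene Rras2 by 0.94 (SE 0.11, adjusted p = 0.000891). All 3 of these calls held in 17 of 17 other fits.

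Of 19 other regulators of the lineage, 6 rose, 4 fell and 9 were not called, with a median of 0.25, and with scaling by library size only 8 rose and 3 fell. Sox8, a SOX factor of the same subgroup as Sox10, fell from 46.5 ± 5.43 to 24.8 ± 2.98 CPM (-0.91, SE 0.13, adjusted p = 0.00162). Myrf, a driver of myelin gene transcription, rose from 70.4 ± 0.997 to 101 ± 17.8 CPM (0.52, SE 0.12, adjusted p = 0.0118). Sox11, which belongs to immature cells, rose by 0.85 (adjusted p = 0.00134). Nkx2-2, which drives precursors to differentiate, was at 2.73 ± 0.425 CPM in I/R against 2.20 ± 0.329 in sham (0.31, adjusted p = 0.316).

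Of the 6 other PDGF ligand and receptor genes, 3 rose and 3 were not called. Pdgfa, which encodes the ligand of the precursor receptor, rose from 29.9 ± 3.93 to 42.2 ± 1.22 CPM (0.50, SE 0.11, adjusted p = 0.01). Pdgfb rose by 0.63 (adjusted p = 0.0234) and Pdgfrb, the receptor of pericytes, by 0.69 (adjusted p = 0.0302). Neither Pdgfb nor Pdgfrb was called without I/R 2 or without any 1 of the sham libraries (adjusted p = 0.0514 to 0.109).

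The BMP pathway, which Bmp4 feeds, was followed from ligand to target. Of 6 other ligands, Gdf10 fell by 1.80 (SE 0.28, adjusted p = 0.0022) and 5 were not called, and 2 were called without I/R 1, I/R 3 or sham 2. With scaling by library size only 2 ligands rose and 1 fell. Of 10 receptors and SMADs, 3 rose, 1 fell and 6 were not called. The signal transducers Smad1 and Smad5 rose by 0.73 (adjusted p = 0.0035) and 0.56 (adjusted p = 0.00265), and Smad9 fell by 0.58 (adjusted p = 0.023). With scaling by library size only 5 rose and 0 fell, and Smad9 was not called (-0.33, adjusted p = 0.102), nor was it without any 1 of the sham libraries. The list had 2 calls without sham 1 or without sham 2.

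Of 12 BMP inhibitors, 6 rose, 2 fell and 4 were not called, and the count of calls was 3 without I/R 2, 5 without I/R 3, 4 without sham 1, 2 without sham 2 and 5 without sham 3. Smad7, an intracellular inhibitor, rose by 0.78 (adjusted p = 0.00174) and noggin (Nog), a secreted one, fell by 0.95 (adjusted p = 0.0266). Nog was not called without I/R 3, sham 1 or sham 2, nor with scaling by library size only (-0.71, adjusted p = 0.0577), where 7 inhibitors rose and 0 fell. Sostdc1, the other that fell (-1.92, adjusted p = 0.0398), overlapped between the groups and was called in 6 of 17 other fits. It was at 2.28 CPM in sham 1, a library low in choroid plexus RNA, and at 10.7 and 18.3 CPM in sham 2 and sham 3. After I/R it was at 3.38, 2.78 and 2.08 CPM. Of the 4 Id genes, classical BMP targets that restrain helix-loop-helix factors, 3 rose and 1 fell. Id1 was at 93.1, 62.2 and 44.3 CPM in I/R against 16.9, 22.0 and 22.6 CPM in sham, and rose by 1.70 (SE 0.26, adjusted p = 0.00205). Id2 rose by 1.09 (adjusted p = 0.00131) and Id3 by 0.85 (adjusted p = 0.00943), while Id4 fell by 0.97 (adjusted p = 0.00155). Endothelial cells transcribe Id1 and Id3 as well, and their markers rose, as given above.

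Receptors related to GPR17 moved in both directions. Of 6 leukotriene and nucleotide receptors tested, 3 rose, 1 fell and 2 were not called. P2ry2 rose by 3.12 (SE 0.40, adjusted p = 0.00112) and P2ry6 by 1.78 (SE 0.26, adjusted p = 0.00168), whereas the microglial receptor gene P2ry12 fell by 1.67 (SE 0.26, adjusted p = 0.00209). Of 6 microglial markers, 3 rose and 2 fell, and 3 were called in all without sham 1 or without sham 2. Among 5 relatives of Enpp6 tested, Enpp1 rose 2.29-fold from 4.38 ± 0.357 CPM (adjusted p = 0.00763), Enpp5 fell by 0.88 (adjusted p = 0.00485) and 2 were not called. Enpp3 rose by 1.44 (adjusted p = 0.0399) from 8 to 51 counts per library, and that call was lost without I/R 1, I/R 2, sham 1 or sham 3 (adjusted p = 0.0839 to 0.124).

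**Figure D4:**
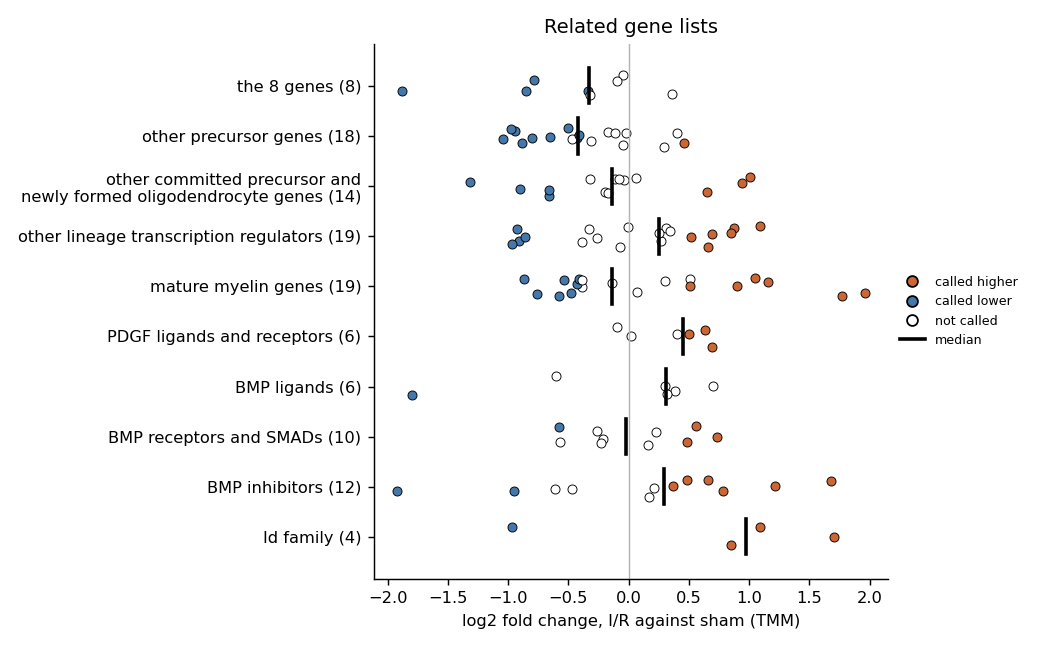
Log2 fold change of I/R over sham for the 8 members and for the tested genes of the related lists, 1 point per gene (orange if called higher, blue if called lower, white if not called), with a line at the median of each list. The median is -0.42 in other precursor genes and 0.97 in the Id family, against 0.03 over all tested genes.

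Myelin genes, which follow the members in maturation, were split. Of 19 tested, 6 rose, 7 fell and 6 were not called, with a median of -0.14, and with scaling by library size only 8 rose and 1 fell, with a median of 0.12. Without sham 1 the list had 8 calls. Ugt8a and Fa2h, enzymes of myelin lipid synthesis, fell by 0.87 (adjusted p = 0.00289) and 0.48 (adjusted p = 0.00547), although Fa2h was not called with scaling by library size only (-0.22, adjusted p = 0.0978). Transferrin (Trf) and Apod, products of mature oligodendrocytes, rose by 1.96 (adjusted p = 0.000385) and 1.77 (adjusted p = 0.000497). All 4 tested genes of the oligodendrocyte stress and interferon list rose, among them the protease gene Klk6 by 5.64 (SE 0.34, adjusted p = 0.000179) and Il33 by 2.72 (adjusted p = 0.000116). The paper describes a gene of this list as a potential marker of reactive astrocytes. The share of these RNAs from oligodendrocytes was not tested. Of 12 proliferation genes, 4 rose and 8 were not called, and 2 were called without sham 3. The replication factors Pcna and Mcm2 rose by 0.71 (adjusted p = 0.000839) and 1.01 (adjusted p = 0.00529).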

How the data were processed

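Bulk RNA-seq of 6 libraries was analysed, with groups taken from the sample titles. The authors' methods state that they aligned reads with TopHat 2 to an Ensembl genome and that genes were counted with HTSeq 0.6.1p2, and the deposited table holds these raw counts. The submitters' processing notes name Bowtie 0.12.2 and mm8, but 40303 identifiers are those of Ensembl's BALB/cJ annotation, so reads of C57BL/6 mice were counted on another strain's gene models. The deposited FPKM values were computed by the authors from counts, gene length and library size. The table's 8 columns of group means and of the authors' own comparison (log2 fold change, p-value, adjusted p, significance) were not used. Whether counting used strand, and how reads with several positions were treated, is not stated in the sources used here.

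Lines split over 2 rows (4 genes, Bmp4 among them) were rejoined. The test was run on the raw counts in edgeR 4.0.16 under R 4.3.3 (filterByExpr, TMM, glmQLFit with robust estimation, glmQLFTest), without covariates, on all 6 libraries, with Benjamini-Hochberg adjustment over all genes tested. The study's methods name no test for this comparison. The SE is the log2 fold change divided by the square root of F. CPM uses the TMM-scaled library size. The pattern search used log2 of CPM plus 0.5 and genes with a mean CPM of at least 1. Ratios were tested by exact permutation over libraries. Alternatives used DESeq2 1.42.0, limma 3.58.1 and other scalings, filters and libraries. The fit was tested on simulated data in which few genes changed, equally in both directions and by large steps. That test does not bear on the choice of scaling or on small changes.

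The members and gene lists were chosen with earlier results of these data known, so no list's direction is independent evidence. The genes named are all members, their partners (Pdgfrb, Pdgfa, Id1, Id3, Nog, Nkx2-2, Myrf and Sox8), the gene nearest each member in pattern and, in each other list, up to 2 genes called higher, 2 called lower and 1 not called, by smallest p. Lims2 and Pmp2 fall outside this rule and were chosen after their values were seen. Stretches of 50 bases shared with other genes' transcripts made up at most 0.356% of any member. That search compared GENCODE transcripts, not the BALB/cJ gene models, and each on its own strand only. It therefore could not find overlap between opposite strands, such as that of Gpr17 and Lims2. Map2, Hdac1, C4b and H2-D1 were not analysed here.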

Additional observations from a re-analysis of the deposited data

How the results depend on the processing

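Of 19 alternatives, the count of called genes was within 1.5 times of 7756 in 18, was 5330 to 7976 without single libraries, and was 2760 with a fold change over 2. The member count of 4 was 2 without sham replicate 1 or 3 (range 2 to 4 without single libraries) and 1 with a fold change over 2, since Gpr17 is the member past that fold. The sign of Pdgfra turned to 0.21 with scaling by library size only, 0.19 with limma on log2 of FPKM plus 1 and 0.19 with FPKM plus 0.1, and its value was -0.17 to 0.00 without single libraries, 0.00 being that without sham replicate 3. Olig2 turned to 0.15, 0.14 and 0.15 under the same 3 settings. The median of all genes was 0.28, 0.18 and 0.26 under those settings. With Olig2 as the reference of the ratios in place of Sox10, an alternative added after the data were seen, Pdgfra turned from -0.39 to 0.04, and Cspg4 moved to -0.24, Bmp4 to -0.21 and Enpp6 to -0.73. Replicate numbers did not pair the libraries: deviations of same-numbered libraries correlated at -0.139, 0.0426 and -0.236, and 0 of 6 libraries correlated best with their own number. With the replicate block, 6332 genes and 3 members were called, Cspg4 being lost (-0.34, adjusted p = 0.0722). Bmp4, with 104 to 192 counts per library, and 3 pools per group limit how small a change could be called.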
